A study of Mus musculus with 6 samples.

Results

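The serpins are a superfamily of protease inhibitors and related proteins that share one fold, and the mouse genes carry symbols from Serpina to Serpini. Members were taken as the entries whose symbol begins with Serpin, a clade letter from a to i and a number, with at least 1 count summed over the distinct libraries. Of 63 such symbols listed, 44 met this rule, out of 23238 gene symbols in all, and the other 19 stood at 0 counts in every library. The study sequenced RNA from lungs of wild-type (WT) mice given PM, or given the PBS vehicle, both by the route abbreviated i.t. in the labels. The labels do not spell out PM and give no strain, age, dose or duration, and the series title calls the exposure chronic. Each group had 3 samples, but PBS replicates 1 and 2 held the same table and count as 1 library here, which left 3 PM and 2 PBS libraries. Whether each sample is a different animal is not stated, and the p-values therefore measure only how far these libraries spread, which may be technical.

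An inhibitory serpin offers an exposed loop as bait, and a protease that cuts the loop is trapped in a covalent complex with the inhibitor. Clade A holds mostly secreted plasma-type inhibitors, clade B mostly inhibitors that stay inside the cell, and clades C to G many regulators of clotting, fibrinolysis and complement. A few members inhibit nothing, among them the collagen chaperone Serpinh1. In the lung the family is best known for alpha-1-antitrypsin, which guards the alveolar wall against neutrophil elastase.

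Total counts ranged from 7410200 to 8798953 in the PM libraries and from 7660937 to 8827202 in the PBS libraries. Levels are given as CPM, counts divided by the library total after TMM scaling (trimmed mean of M values). A gene at 0 counts may have had up to 3, which corresponds to 0.351 to 0.430 CPM in PM and 0.348 to 0.370 CPM in PBS, for counting error only. The ribosomal RNA precursor Rn45s took 15.7% to 25.4% of counts in PM and 16.3% to 18.2% in PBS, and haemoglobin genes 0.632% to 1.82% in PM and 1.60% to 5.42% in PBS, highest in PBS replicate 1. The 5 libraries were of lung by their markers, since surfactant and club cell genes were among the most abundant, with Sftpc at 9232 to 12220 CPM in PM and 9540 to 11300 CPM in PBS. In whole tissue, fewer cells of a type and less RNA per cell cannot be told apart.

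The serpins together held a small share of each library. They took 0.103%, 0.106% and 0.120% of counts in PM replicates 1, 2 and 3, against 0.116% and 0.123% in PBS replicates 1 and 3. The Wilson 95% interval ran from 0.101% to 0.105% for the lowest of these and from 0.121% to 0.126% for the highest, and it covers counting error only. The 2 groups overlapped in this share, but not on the other scales computed. Without Rn45s and haemoglobin genes the shares were 0.138%, 0.145% and 0.143% in PM, against 0.151% and 0.150% in PBS. The summed level of all serpins after TMM scaling was 1056, 1147 and 1117 CPM in PM, against 1184 and 1166 CPM in PBS, so that each PM library lay below both PBS libraries on either scale. Neither sum was tested. Both include Serping1, which was itself lower in every PM library than in both PBS libraries, so they do not describe the other members. The summed level of clade B, for example, overlapped between groups. A single gene, Serping1, made up 31.2% to 37.1% of all serpin counts in PM and 40.4% to 44.4% in PBS. The 5 most abundant serpins of each library made up 77.1% to 80.9% in PM and 84.9% to 86.8% in PBS.

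Per kilobase of annotated exon, averaged over all 5 libraries, Serping1 stood highest at 184 CPM per kb, and Serpinh1 followed at 64.0. Serpinb6b (40.4 CPM per kb), Serpinb6a (24.0), Serpinb9 (20.3), Serpina3n (18) and Serpine2 (15.2) came next. Serpinb1a stood at 8.98 and Serpina3g at 4.56 CPM per kb. Serpinb6b and Serpinb6a did not overlap over the single libraries on this scale, nor did the genes above them, whereas neighbours below Serpinb6a in this order overlapped, except Serpine2 and Serpinb1a.

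**Figure D1:**
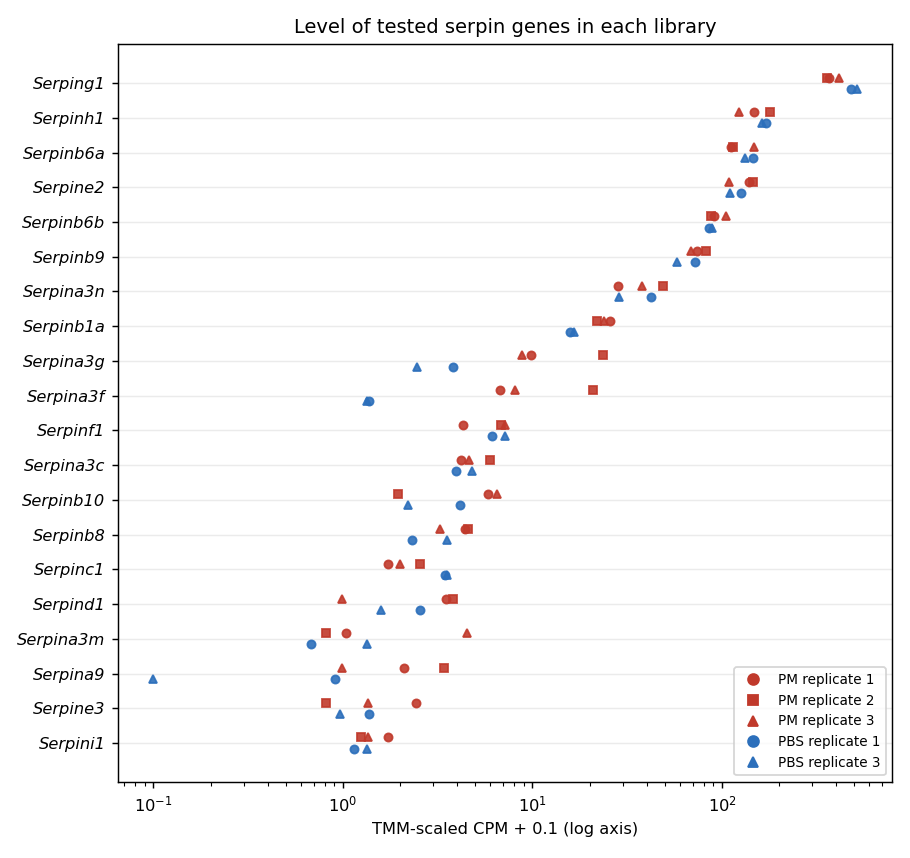
TMM-scaled CPM plus 0.1 on a log axis for 20 of the 21 tested serpin genes, one point per library, PM in red above PBS in blue, marker shape giving the replicate number. Serpina3f and Serpina3g have all PM points well above both PBS points, Serping1 has all PM points below both PBS points, and most other genes overlap.

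Only 21 of the 44 members had enough counts to be tested, and they ranged from 51 to 17249 counts over the 5 libraries. The other 23 ranged from 1 to 45 counts and together held 0.481% of serpin counts. None of the 21 passed the test of PM against PBS (two-sided quasi-likelihood test of edgeR over 14057 genes, Benjamini-Hochberg adjusted p below 0.05, 3 PM and 2 PBS libraries). Over all genes the same rule called 0.228%, and a count of 0 among 21 does not stand apart from that background. With the threshold at 0.10, where 1.47% of all genes were called, 1 serpin passed, Serpina3f. At an unadjusted p below 0.05 there were 5 serpins higher in PM, where the background is 7.26% of genes, and 1 lower, where it is 6.05%.

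All PM libraries lay above both PBS libraries for 5 serpins, against 15.5% of all genes, and below them for 2, against 16.1%. Among those above were Serpina3f, Serpina3g, Serpinb1a and Serpina9, and those below were Serping1 and Serpinc1. The remaining 14 overlapped. The median log2 fold was 0.25 over the tested serpins and 0.01 over all tested genes, with 16 serpins higher and 5 lower. These counts cover only members that passed the filter on low counts, so they do not describe the family as a whole. Serpina9 and Serpine3 passed the filter on their PM libraries alone. Serpina3f, Serpina3m and Serpini1 had only 1 PBS library at its cutoff and also needed PM libraries to pass.

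DESeq2, which called 2.72% of all genes, called Serpina3f and Serpina3g, and limma-voom, which called 0.121% of all genes, called no serpin. The count of 0 by edgeR depended on single libraries, since Serpina3f passed without PM replicate 2, and Serpina3f, Serpina3g and Serping1 passed without PM replicate 3.

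**Figure D2:**
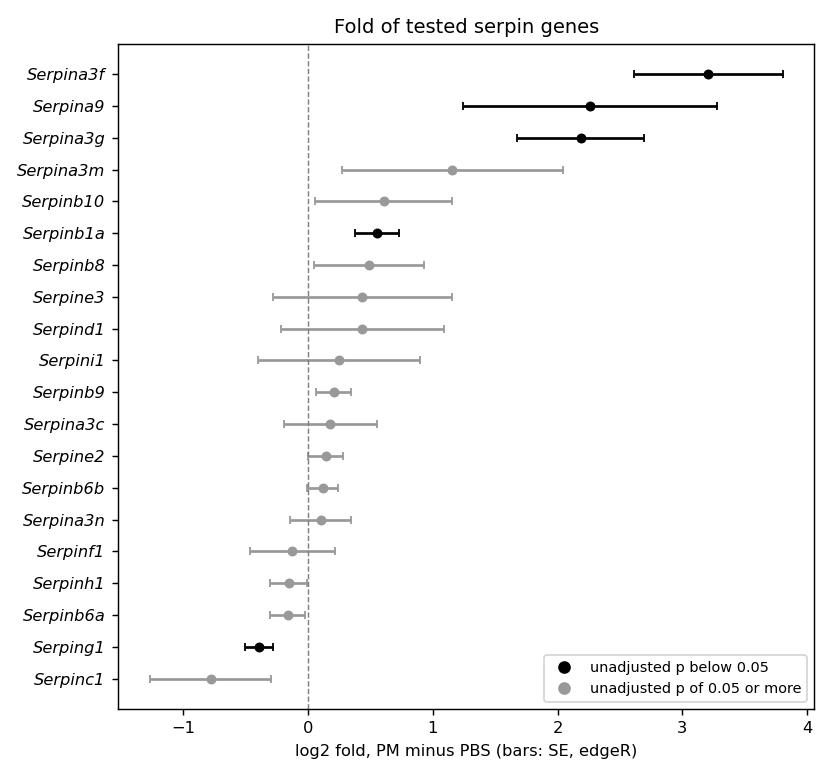
Log2 fold of PM minus PBS for 20 of the 21 tested serpins, with bars of 1 SE from edgeR, sorted by fold. Serpina3f, Serpina9 and Serpina3g lie above a log2 fold of 2, Serpinc1 and Serping1 are lowest, and most genes lie within 1 of zero.

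Serpina3f and Serpina3g belong to the Serpina3 genes, which are the mouse counterparts of human alpha-1-antichymotrypsin and lie side by side on chromosome 12. Human antichymotrypsin is an acute phase inhibitor of cathepsin G and chymase, and the mouse has many copies of the gene. Serpina3g, also called Spi2A, is known to inhibit lysosomal cysteine cathepsins inside leukocytes. Of the 8 Serpina3 members 5 were tested. All 5 were higher in PM by log2 fold, as were 7179 of all 14057 tested genes. In 2 of them the groups did not overlap, where 15.5% of all genes had all PM libraries above PBS, and the others overlapped.

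Serpina3f (chromosome 12, 104214544 to 104221129 in GRCm38 by RefSeq, as for all genes here) had 6.66, 20.8 and 7.94 CPM in PM replicates 1, 2 and 3, against 1.27 and 1.23 CPM in PBS replicates 1 and 3. These rest on 57, 145 and 63 counts in PM and 11 and 10 counts in PBS. Every PM library was several times above both PBS libraries, PM replicate 2 the most, while the PBS libraries nearly coincided. The log2 fold was 3.21 ± 0.60 SE (edgeR, Benjamini-Hochberg adjusted p = 0.0605), just short of the threshold. Across 15 alternative fits the fold ranged from 2.52 to 3.50 and the adjusted p from 1.47e-05 to 0.493.

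Serpina3g (chromosome 12, 104236147 to 104241939) had 9.70, 23.5 and 8.70 CPM in PM, against 3.71 and 2.35 CPM in PBS. Here too PM replicate 2 was highest and no PM library came down to a PBS level. The log2 fold was 2.19 ± 0.51 SE (edgeR, Benjamini-Hochberg adjusted p = 0.117). The fold ranged from 1.60 to 2.56 across 15 alternative fits and the adjusted p from 0.00117 to 0.680.

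Serpina3n, the most abundant gene of the cluster and the one usually followed as an acute phase marker, had 28.3, 48.4 and 37.7 CPM in PM, against 42.2 and 28.6 CPM in PBS. The groups overlapped completely. The log2 fold was 0.10 ± 0.24 SE, and its sign turned without PM replicate 2 (-0.10) and without PBS replicate 3 (-0.15).

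The makeup of the cluster is given as description, since Serpina3f and Serpina3g were singled out for their higher levels in PM. Serpina3f and Serpina3g together held 32.1%, 44.0% and 25.9% of Serpina3 counts in PM replicates 1, 2 and 3, against 9.53% and 9.15% in PBS replicates 1 and 3. Serpina3n held 55.5%, 48.1% and 58.7% in PM, against 80.7% and 73.2% in PBS. The count of Serpina3f per count of Serpina3g was 0.687, 0.884 and 0.913 in PM, against 0.344 and 0.526 in PBS. The PBS ratios rest on 11 and 10 counts of Serpina3f and 32 and 19 counts of Serpina3g. In each of these measures the groups did not overlap. The shares largely restate the levels above and are not separate support, and none of the measures was tested on its own.

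Serpina3m had 0.935, 0.717 and 4.41 CPM in PM, against 0.579 and 1.23 CPM in PBS. Its log2 fold of 1.16 ± 0.88 SE came from PM replicate 3, which alone held 35 of the 63 counts. Serpina3c, with 4.09, 5.88 and 4.54 CPM in PM and 3.82 and 4.69 CPM in PBS, overlapped between groups (log2 fold 0.18 ± 0.37 SE). Serpina3h had 11, 7 and 6 counts in PM and 4 and 6 in PBS, and Serpina3i and Serpina3k had between 0 and 3 counts in every library.

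**Figure D3:**
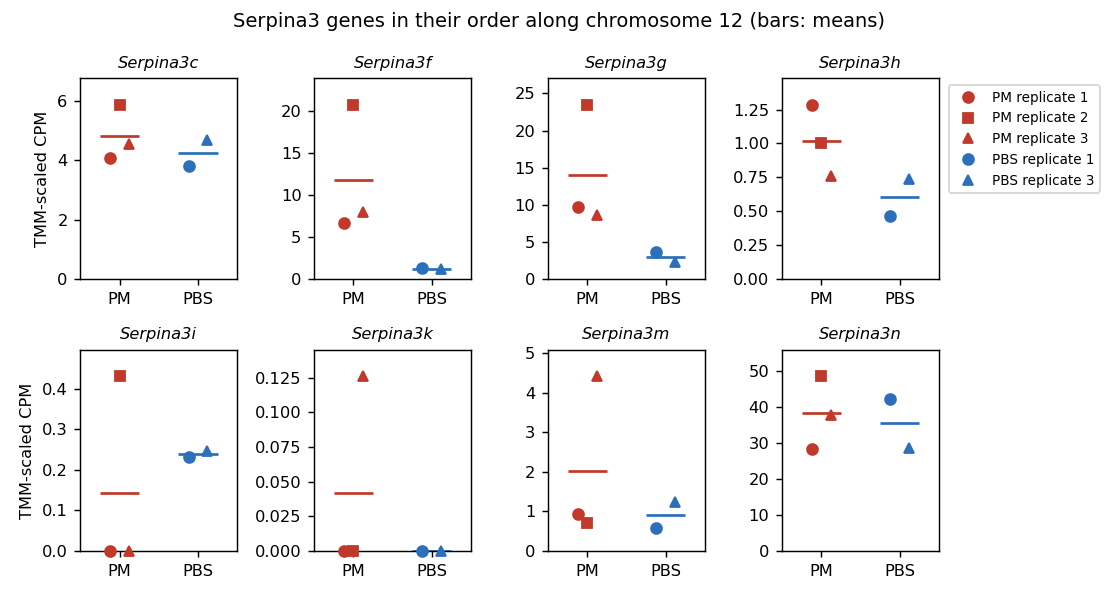
TMM-scaled CPM of the 8 Serpina3 members in each library, panels in the order of the genes along chromosome 12, PM left of PBS, bars at the group means, each panel with its own linear axis from zero. The PM points stand apart from the PBS points in the panels of Serpina3f and Serpina3g, with PM replicate 2 highest, but not in those of Serpina3c, Serpina3m and Serpina3n.

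Reads of these paralogs could be divided among copies. The longest coding transcripts of Serpina3f and Serpina3g were identical at 88.5% of 1795 aligned bases, and those of Serpina3f and Serpina3n at 79.4% of 2034. Of all stretches of 50 bases in GENCODE M21 transcripts, 10.6% for Serpina3f, 15.5% for Serpina3g, 19.1% for Serpina3m and 6.90% for Serpina3n also occurred in another gene. With the counts of Serpina3f and Serpina3g summed into one feature, an alternative chosen after the data were seen, the log2 fold was 2.57 ± 0.58 SE (edgeR, Benjamini-Hochberg adjusted p = 0.152). With all Serpina3 genes summed in the same way it was 0.65 ± 0.30 SE (edgeR, Benjamini-Hochberg adjusted p = 0.430).

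The promoter windows of Serpina3f, Serpina3g and Serpina3n are shown because Serpina3f and Serpina3g stood apart between groups and their most abundant neighbour did not. They are 300 bases each, from RefSeq on GRCm38.p6, all on the plus strand, at chr12:104214294-104214593, chr12:104235897-104236196 and chr12:104406458-104406757 in that order. Capitals mark matches to TTCNNNGAA, the palindromic form bound by several STAT factors, which reads the same on both strands.
Serpina3f: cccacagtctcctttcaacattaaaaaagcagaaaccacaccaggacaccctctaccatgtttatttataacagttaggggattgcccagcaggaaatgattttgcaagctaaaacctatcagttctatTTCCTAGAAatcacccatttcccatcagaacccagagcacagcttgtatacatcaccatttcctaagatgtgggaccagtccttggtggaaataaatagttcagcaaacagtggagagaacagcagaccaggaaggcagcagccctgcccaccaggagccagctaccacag
Serpina3g: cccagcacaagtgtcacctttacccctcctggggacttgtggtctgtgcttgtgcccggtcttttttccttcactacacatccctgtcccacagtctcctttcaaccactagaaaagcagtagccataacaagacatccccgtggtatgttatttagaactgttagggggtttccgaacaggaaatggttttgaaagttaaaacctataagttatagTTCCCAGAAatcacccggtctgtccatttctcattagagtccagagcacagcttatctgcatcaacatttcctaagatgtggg
Serpina3n: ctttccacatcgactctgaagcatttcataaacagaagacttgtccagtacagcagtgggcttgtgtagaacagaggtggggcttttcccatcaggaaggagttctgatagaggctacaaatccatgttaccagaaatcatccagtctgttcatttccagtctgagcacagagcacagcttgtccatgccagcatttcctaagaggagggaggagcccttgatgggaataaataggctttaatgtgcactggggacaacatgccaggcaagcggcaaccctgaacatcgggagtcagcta
The printed Serpina3f window held 1 match, TTCCTAGAA, beginning 121 bases upstream of its start site. The Serpina3g window held 1 match, TTCCCAGAA, beginning 33 bases upstream of its own. Serpina3f has a further window, at chr12:104214383-104214682, with the same match at position 41, so its distance depends on the start site. The Serpina3n window held none, which says only that these letters are not in this window. Serpina3f and Serpina3g windows were identical at 83.7% of 202 aligned bases, and Serpina3n matched them at 69.5% and 69.6%.

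Of the 44 members 36 had a promoter window in RefSeq, and 6 of those held TTCNNNGAA: Serpina3f, Serpina3g, Serpina3i, Serpina11, Serpinb2 and Serpinb6a. Of 27025 genes with a window, 9.55% held this motif in at least 1 of their windows, and of all 32851 windows 8.30%. The STAT6-type palindrome, TTC and GAA with 4 bases of any kind between them, was found in 5 members, in 8.01% of all genes and in 6.95% of all windows. The interferon-type element, GAAA and GAAA with 2 bases of any kind between them, was sought on both strands and found in 2 members, Serpinb6a and Serpinb9, in 3.99% of all genes and in 3.44% of all windows. Neither of these occurred in the windows printed above, and a match is a description of letters, not evidence of binding.

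Alpha-1-antitrypsin, the elastase inhibitor of plasma, is made mainly in the liver, and its transcripts were near 0 in these lungs. Serpina1d had 11 counts in PM replicate 1 and 0 elsewhere, and Serpina1b had 7 counts in PM replicate 2 and 0 elsewhere. Serpina1a had 1 count, in PBS replicate 3, and Serpina1c 1, in PM replicate 2. The paralogs share much of their sequence, up to 74.2% of 50-base stretches for Serpina1c, so which copy a read was assigned to is uncertain. None was tested.

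Most hepatocyte markers were likewise near 0: Apoa2 and Fgb had no count in any library, and Alb stayed at or below 0.573 CPM in PM and 0.232 CPM in PBS. The list of 9 also holds transferrin (Trf), which other cells make too, at 148 to 161 CPM in PM and 118 to 148 CPM in PBS, and the serpin Serpinc1, also described as a member. The 9 summed to 151 to 165 CPM in PM and 122 to 151 CPM in PBS, and the 7 others alone, a split made after the values were seen, to 0.757 to 1.40 CPM in PM and 0.371 to 0.580 CPM in PBS.

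Among the other secreted clade A genes, Serpina9, which marks germinal centre B cells in humans, had 1.99, 3.30 and 0.883 CPM in PM, against 0.811 and 0 CPM in PBS. PM replicate 3 and PBS replicate 1 were nearly equal, with 7 counts each. The log2 fold of 2.26 ± 1.016 SE (edgeR, Benjamini-Hochberg adjusted p = 0.368) rests on these low counts and lay between 1.31 and 7.02 in 12 alternative fits. An annotated transcript of Gm28577 overlaps exons of Serpina9 and of Serpina11. Serpina10, an inhibitor of clotting factor X, had 9, 16 and 3 counts in PM and 10 and 7 in PBS. Serpina7, Serpina11 and Serpina12 had between 0 and 8 counts in every library and were not tested.

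Clade B, the intracellular inhibitors, held 16 members and 28.5% of all serpin counts, and its summed level was 313, 315 and 357 CPM in PM replicates 1, 2 and 3, against 325 and 303 CPM in PBS replicates 1 and 3. These genes protect cells from proteases of their own granules and lysosomes. Of the 6 tested, 5 were higher and 1 lower by log2 fold, where 7179 of all 14057 tested genes were higher. Only Serpinb1a had groups that did not overlap, with all PM libraries above PBS, as in 15.5% of all tested genes. So 1 among 6 does not stand apart from that background.

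Serpinb1a (chromosome 13, 32842092 to 32853206) inhibits neutrophil elastase, cathepsin G and proteinase 3. It had 25.5, 21.8 and 23.8 CPM in PM, against 15.8 and 16.5 CPM in PBS. The PM libraries lay close together and all above PBS. The log2 fold was 0.55 ± 0.18 SE (edgeR, Benjamini-Hochberg adjusted p = 0.195), and it stayed between 0.50 and 0.61 in 15 alternative fits. Only 1 of these fits called it (edgeR, Benjamini-Hochberg adjusted p = 0.0384). That fit entered all 6 tables and so counted 1 library as 2.

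The serine proteases that Serpinb1a inhibits were hardly detected as transcripts. Cathepsin G (Ctsg) had no count in any library, elastase (Elane) 0.117 CPM in PM replicate 1 and 0 elsewhere, and proteinase 3 (Prtn3) 1.05, 0.430 and 1.89 CPM in PM and 0.232 and 1.11 CPM in PBS. These genes are transcribed mainly in bone marrow precursors, and mature neutrophils carry the finished proteins. The summed level of 10 neutrophil markers was 298, 238 and 981 CPM in PM replicates 1, 2 and 3, against 286 and 141 CPM in PBS, highest in PM replicate 3. Of the 10, Ltf had 9.58, 25.5 and 8.575 CPM in PM and Retnlg 35.8, 84.6 and 58.1 CPM. Both were highest in PM replicate 2, and the rest of the list in PM replicate 3. Serpinb1a was highest in PM replicate 1, and the part of neutrophils in its level was not tested.

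Serpinb6a, an inhibitor of cathepsin G, was the most abundant clade B gene by count, with 111, 114 and 147 CPM in PM, against 145 and 133 CPM in PBS. Its log2 fold was -0.16 ± 0.14 SE. Exons of Nqo2 and Ripk1 overlap it on the opposite strand, and whether counting used strand is not given in the sources used here. Its paralog Serpinb6b had 90.1, 87.7 and 105 CPM in PM, against 85.1 and 88.9 CPM in PBS (log2 fold 0.12 ± 0.12 SE). In both genes PM replicate 3 was the highest library and the groups overlapped.

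Serpinb9 guards cytotoxic lymphocytes and other cells against granzyme B. It had 74.0, 82.1 and 68.7 CPM in PM, against 71.7 and 58.0 CPM in PBS, with overlap and a log2 fold of 0.21 ± 0.14 SE. Its target Gzmb was low, at 0.701, 1.86 and 2.40 CPM in PM and 2.67 and 2.96 CPM in PBS, without overlap between groups but also without passing the test (log2 fold -0.77 ± 0.60 SE).

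Serpinb10, a nuclear serpin of blood cell precursors, had 5.73, 1.86 and 6.43 CPM in PM, against 4.06 and 2.10 CPM in PBS. It was lowest in PM replicate 2, the library in which Serpina3f and Serpina3g were highest. Serpinb8, an inhibitor of furin, had 4.32, 4.44 and 3.15 CPM in PM, against 2.20 and 3.46 CPM in PBS. Both overlapped between groups, with log2 folds of 0.61 ± 0.55 SE and 0.49 ± 0.44 SE.

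The clade B genes of stratified epithelium were at the limit of detection. Serpinb5 (maspin), Serpinb7, Serpinb11 and Serpinb12 had 1 or 2 counts each in all, every one of them in a PM library. Serpinb2, an inhibitor of urokinase made by stressed macrophages and keratinocytes, had 1, 6 and 0 counts in PM and 0 and 1 in PBS. Markers of basal and squamous epithelium were also near 0, with a summed level of 0.430 to 0.883 CPM in PM and 0.617 to 1.04 CPM in PBS over 6 genes. Serpinb1b, Serpinb1c, Serpinb6c, Serpinb9b and Serpinb9f had between 0 and 12 counts in any library and were not tested.

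The inhibitors of clotting, fibrinolysis and complement made up 51.5% of serpin counts, and their summed level was 534, 536 and 562 CPM in PM replicates 1, 2 and 3, against 628 and 651 CPM in PBS replicates 1 and 3. No PM library reached a PBS level in this sum. Serping1 carried most of it. Of the 6 tested members of this group 4 were higher and 2 lower by log2 fold, so the sum does not describe the members besides Serping1.

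Serping1 (chromosome 2, 84765360 to 84775444) encodes the C1 inhibitor, which blocks the complement proteases C1r and C1s and plasma kallikrein. It had 368, 358 and 415 CPM in PM, against 479 and 517 CPM in PBS. All PM libraries were below both PBS libraries, with means of 380 ± 30.4 CPM in PM and 498 ± 27.0 CPM in PBS (SD, n = 3 and 2). The log2 fold was -0.39 ± 0.11 SE (edgeR, Benjamini-Hochberg adjusted p = 0.157). It stayed between -0.46 and -0.33 in 15 alternative fits (adjusted p 0.0422 to 0.764).

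Transcripts of the proteases that C1 inhibitor blocks were set beside it. C1ra had 60.1, 82.5 and 59.4 CPM in PM and 64.1 and 63.4 CPM in PBS, and C1s1 had 32.7, 56.2 and 37.2 CPM in PM and 44.6 and 36.4 CPM in PBS. Both overlapped between groups, with log2 folds of 0.08 ± 0.16 SE and 0.05 ± 0.23 SE. The difference between these folds and that of Serping1 was not tested.

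Markers of endothelium and fibroblasts were set beside Serping1. The summed level of 6 endothelial markers was 1456, 1271 and 1420 CPM in PM, against 1678 and 1778 CPM in PBS, also with all PM libraries below. In 4 of the 6 markers the PM libraries all lay below PBS, as they did in 16.1% of all tested genes. Vwf and Cldn5 overlapped, with log2 folds of 0.25 ± 0.16 SE and 0.02 ± 0.17 SE. The summed level of 6 fibroblast markers was 1445, 1684 and 976 CPM in PM, against 1447 and 1328 CPM in PBS, with overlap, and most of it was collagen. The fibroblast marker Pdgfra had 97.6, 79.7 and 110 CPM in PM, all below 170 and 160 CPM in PBS. Its log2 fold was -0.78 ± 0.14 SE (edgeR, Benjamini-Hochberg adjusted p = 0.0525, DESeq2 adjusted p = 0.000723). Pdgfra was the only 1 of the 6 with all PM libraries below PBS, where 16.1% of all tested genes were. The other markers outside collagen, Dcn and Lum, overlapped, with log2 folds of -0.15 ± 0.14 SE and 0.53 ± 0.50 SE. The part of cell type shares in the Serping1 level was not tested.

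Serpine2, protease nexin 1, an inhibitor of thrombin on cell surfaces and in matrix, overlapped between groups. It had 138, 145 and 109 CPM in PM, against 126 and 111 CPM in PBS (log2 fold 0.14 ± 0.14 SE). Serpinc1, antithrombin, had 1.64, 2.44 and 1.89 CPM in PM, against 3.36 and 3.46 CPM in PBS. All PM libraries were lower, on 14 to 17 counts in PM and 28 and 29 in PBS, and the log2 fold was -0.78 ± 0.49 SE (edgeR, Benjamini-Hochberg adjusted p = 0.525). Exons of Zbtb37 overlap Serpinc1 on the opposite strand.

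Serpind1, heparin cofactor II, had 3.39, 3.73 and 0.883 CPM in PM, against 2.43 and 1.48 CPM in PBS, with PM replicate 3 below both PBS libraries (log2 fold 0.44 ± 0.65 SE). Serpine3 had 2.34, 0.717 and 1.26 CPM in PM, against 1.27 and 0.864 CPM in PBS (log2 fold 0.44 ± 0.72 SE), and its exons overlap Ints6 on the opposite strand. Serpinf2, the plasmin inhibitor alpha-2-antiplasmin, had 4 counts in PM replicate 2 and 1 in PBS replicate 3. Thrombin (F2), the target of antithrombin and heparin cofactor II, had 0.126 CPM in PM replicate 3 and 0 elsewhere.

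The last group holds members with roles in matrix and nerve. Serpinh1 (Hsp47), the endoplasmic reticulum chaperone of collagen, had 147, 179 and 123 CPM in PM, against 170 and 163 CPM in PBS (log2 fold -0.15 ± 0.15 SE). PM libraries lay on either side of PBS, and the collagen genes Col1a1 and Col1a2 were likewise lowest in PM replicate 3, at 121 and 397 CPM. Serpinf1, pigment epithelium-derived factor, had 4.21, 6.74 and 7.06 CPM in PM and 6.03 and 7.04 CPM in PBS, and the sign of its fold (-0.13) turned without PM replicate 1 (0.08). Serpini1, neuroserpin, an inhibitor of tissue plasminogen activator, had 1.64, 1.147 and 1.26 CPM in PM and 1.04 and 1.23 CPM in PBS. Serpini2 had 1 count, in PM replicate 3.

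Proteases and other inhibitors were set beside the serpins as 6 lists. The lists were chosen with earlier results of these data known, so no list was tested as a whole. Over all tested genes edgeR called 0.228% and DESeq2 2.72%, in either direction. At an unadjusted p below 0.05 from edgeR, 7.26% of all genes were higher and 6.05% lower. The median log2 fold over all tested genes was 0.01. Among 16 tested inhibitors outside the serpin family, 1 rose and none fell by edgeR's test. At an unadjusted p below 0.05 the list had 7 genes higher and 2 lower, and its median log2 fold was 0.50. Wfdc17, a secreted whey acidic protein, rose with 14.4, 13.8 and 23.5 CPM in PM, against 1.97 and 2.96 CPM in PBS. Its log2 fold was 2.80 ± 0.35 SE (edgeR, Benjamini-Hochberg adjusted p = 0.0142). Cstb, a cytosolic cysteine protease inhibitor, stood at a log2 fold of 0.74 and the paralog Wfdc21 at 1.84, and their Benjamini-Hochberg adjusted p-values from edgeR were 0.0525 and 0.0605. DESeq2 called 5 of the 16 higher and none lower.

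Among 9 tested granzymes, cysteine cathepsins and caspases 1 rose and none fell, with a median log2 fold of 0.52. Ctsk, the collagen-degrading cathepsin K, rose with 44.2, 56.6 and 47.8 CPM in PM, against 16.8 and 10 CPM in PBS (log2 fold 1.88 ± 0.23 SE, edgeR, Benjamini-Hochberg adjusted p = 0.0140). Cathepsin B (Ctsb), a known target of Serpina3g, had 230, 307 and 189 CPM in PM, against 168 and 169 CPM in PBS. It was highest in PM replicate 2, as Serpina3f and Serpina3g were. So were the other tested cathepsins and caspases of this list, but not its tested granzymes. The share of all genes highest in that library was not computed. The groups did not overlap for Ctsb, but it did not pass the test (log2 fold 0.52 ± 0.18 SE). Granzyme A (Gzma) had 18.7, 13.3 and 9.08 CPM in PM, against 25.7 and 32.5 CPM in PBS, and was called lower by DESeq2 but not by edgeR (log2 fold -1.08 ± 0.27 SE).

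Of 10 tested clotting and complement proteases 1 rose and none fell, with a median of 0.27. Clotting factor VII (F7) rose with 44.5, 42.9 and 29.6 CPM in PM, against 16.6 and 15.6 CPM in PBS (log2 fold 1.28 ± 0.21 SE, edgeR, Benjamini-Hochberg adjusted p = 0.0379). Factor X (F10) had 27.3, 39.1 and 19.4 CPM in PM, against 5.10 and 11.2 CPM in PBS, and was called by DESeq2 but not by edgeR. None of 9 plasminogen activation genes (median log2 fold 0.18, 1 gene on each side at an unadjusted p below 0.05), 11 airway and epithelial proteases (0.31, with 2 higher) or 2 neutrophil and mast cell proteases (-0.79, with 1 lower) passed edgeR's test, and DESeq2 called 0 in each.

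With only 1 PBS library, the calls of Wfdc17, Ctsk and F7 were lost while their log2 folds stayed of like size, and over all genes 1 call was left without PBS replicate 1 and 6 without PBS replicate 3. The folds without PBS replicate 1 were 2.53, 2.31 and 1.33, and without PBS replicate 3 they were 3.12, 1.56 and 1.23. Without PBS replicate 1 their adjusted p-values were 0.379, 0.0591 and 0.444, and without PBS replicate 3 they were 0.0883, 0.0883 and 0.306, all from edgeR with the same adjustment. F7 also missed the threshold without PM replicate 1 (edgeR, Benjamini-Hochberg adjusted p = 0.0987).

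**Figure D4:**
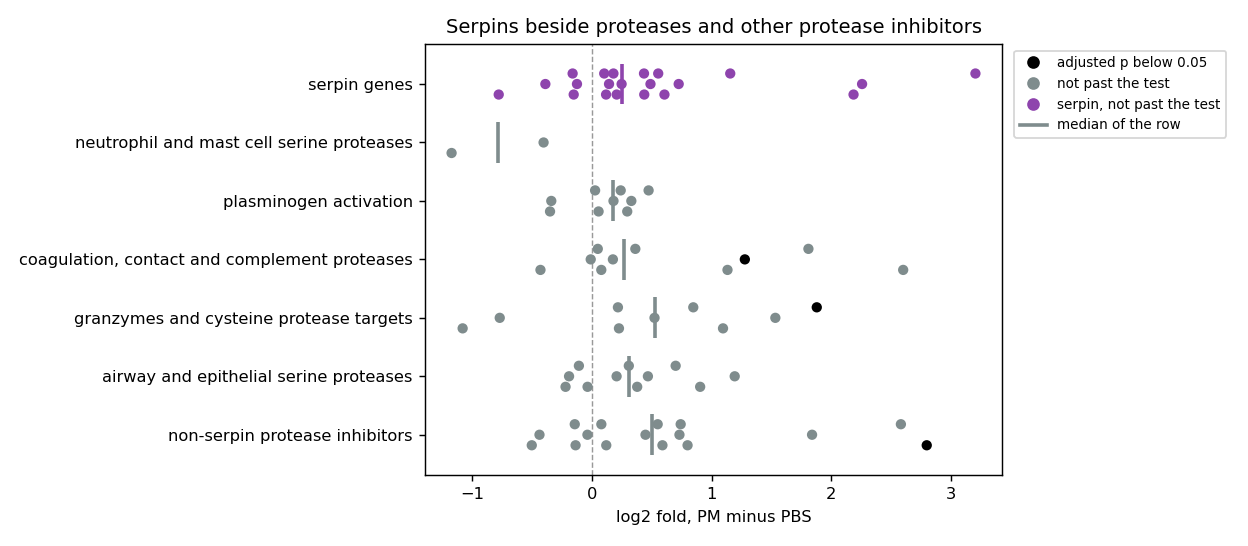
Log2 fold of PM minus PBS for the tested serpins (top row) and for the tested genes of 6 lists of proteases and other inhibitors, a vertical bar at the median of each row and black points for genes past edgeR's test. Black points are Wfdc17, Ctsk and F7, and no serpin is black.

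Mucous cell markers were highest in PM replicate 2, as Serpina3f and Serpina3g were, in 8 of 8 genes. The summed level of 8 goblet and mucous cell markers was 393, 1477 and 84.7 CPM in PM replicates 1, 2 and 3, against 6.72 and 6.54 CPM in PBS replicates 1 and 3, and Muc5ac was at 0 in both PBS libraries and in PM replicate 3. The summed level of 8 alveolar macrophage markers was 1171, 1500 and 1028 CPM in PM, against 354 and 580 CPM in PBS. Only 3 of those 8 genes were highest in PM replicate 2, and Chil3 alone gave 591, 1014 and 453 CPM of the sum in PM, against 18.2 and 127 CPM in PBS. Without Chil3, a choice made after the values were seen, the sum was 580.5, 487 and 575 CPM in PM, lowest in PM replicate 2, against 336 and 453 CPM in PBS. In PM replicates 1 and 3 Serpina3f had 6.66 and 7.94 CPM and Serpina3g 9.70 and 8.70 CPM. The share of all genes that were highest in PM replicate 2 was not computed, so the 8 of 8 and 3 of 8 have no background. The part of these cells in the levels of Serpina3f and Serpina3g was not tested.

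None of the marker genes passed edgeR's test, which called 0.228% of all genes. DESeq2, which called 2.72% of all genes, called 5 of 7 tested mucous, 3 of 8 neutrophil and 2 of 8 macrophage markers higher. It called 1 of 6 fibroblast and 1 of 6 endothelial markers lower. At an unadjusted p below 0.05 from edgeR, 5 mucous, 3 neutrophil, 2 macrophage and 1 of 5 alveolar type 2 cell markers were higher in PM. The background for that is 7.26% of genes. Lower were 4 of 6 endothelial, 1 of 6 fibroblast and 1 of 4 mesothelial markers, where the background is 6.05%. Markers of alveolar type 2 cells and club cells overlapped between groups in their summed level, at 19870 to 22800 and 17000 to 33270 CPM in PM and 17740 to 21660 and 21500 to 22270 CPM in PBS. The 4 mesothelial markers summed to 92.7 to 102 CPM in PM and 104 to 127 CPM in PBS. The 8 mast cell and basophil markers summed to 63.9 to 80.9 CPM in PM and 81.7 to 92.2 CPM in PBS, nearly all of it Kit, which other lung cells also express, while Mcpt8 was at 0 in every library.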

How the data were processed

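Per the labels' protocols, the easy-BLUE kit gave total RNA, from which Lexogen's SENSE mRNA-Seq kit made the libraries. TopHat, Cufflinks and the build mm10 are named in the submitters' processing notes; the counting program, annotation and strand use were not given in the sources used here. Deposited values are raw counts, 1 value for each of 23282 gene entries per table, with no normalization. PBS replicates 1 and 2 held identical tables and were entered once, although 6 samples are labelled. A blank line with no value was left out, and of entries sharing a symbol only that with most counts was used, which set aside 44 entries.

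Counts were scaled by TMM, filtered with filterByExpr and tested with edgeR 4.0.16 in R 4.3.3 (robust quasi-likelihood test, PM against PBS, no covariates, two-sided, Benjamini-Hochberg adjustment over 14057 genes). SE was taken as the log2 fold over the root of F. DESeq2 1.42.0, limma-voom (limma 3.58.1), other scalings, filters and thresholds, each library left out, the replicate number as a block, all 6 tables, and counts without Rn45s and haemoglobin genes were alternatives. The procedure was tested on simulated data.

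Exon lengths and shared sequence came from GENCODE M21, and gene coordinates and promoters from RefSeq, both on GRCm38, which is mm10. Members and lists were chosen with earlier results of these data known. Named members were those past a test or unadjusted p below 0.05, and those with no overlap between groups and at least a 2-fold difference. The 10 most abundant and the best known inhibitors were also named. From each list at most 3 genes with the smallest p were named, besides targets of a named serpin and single markers set beside it. The values of 1 tested member are not reported here, though counts over the members include it.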

Additional observations from a re-analysis of the deposited data

How the results depend on the processing

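Of 21 tested serpins 0 were called as reported, and 1 with no filter on low counts, 2 by DESeq2, 1 at an adjusted p below 0.10, 2 with the replicate number as a block and 4 when all 6 tables were entered as deposited, which counts 1 library as 2. Leaving out 1 library at a time gave 0 to 3. The number of serpins tested was 44 with no filter, 19 with all 6 tables and 17 to 24 with 1 library left out, and 21 in the others of these. Over all genes, 32 were called as reported and 275, 382, 206, 353 and 635 under those alternatives in the same order, with 81 when at least 1 CPM was required in 2 libraries, 17 by limma-voom, and 1 to 427 with 1 library left out. In the lists of proteases, inhibitors and markers, 3 genes were called higher and 0 lower as reported. The same 5 alternatives gave 11, 18, 10, 17 and 19 higher and 3, 3, 2, 2 and 5 lower, the filter of 1 CPM gave 5 and 2, limma-voom 1 higher, and leaving out 1 library 0 to 12 higher and 0 to 4 lower. The causes were not tested.

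With the replicate block the log2 fold of Serpind1 was -0.015 and that of Serpina3n -0.10, against 0.44 and 0.10 as reported. The numbers are shared by only 2 pairs of distinct libraries, whose deviations from their group means correlated across genes at -0.03 and 0.07, so they are not shown to pair the samples. With 1 library left out, Serpina3n stood at -0.15 without PBS replicate 3 and -0.10 without PM replicate 2, within a range of -0.15 to 0.41, and Serpinf1 at 0.081 without PM replicate 1, within a range of -0.26 to 0.081. Without Rn45s and haemoglobin genes in the total, serpins took 0.142% of counts in PM and 0.151% in PBS, against 0.109% and 0.119%, and over raw library totals their summed level in PBS was 1195 CPM, against 1175 CPM. With either PBS library left out, the remaining one is assumed to vary as the PM libraries do. By limma-voom Serpina9 stood above Serpina3f in log2 fold (2.98 against 2.93), and without PBS replicate 1 as well (7.02 against 3.23). Depth limits the 23 untested members, each with at most 45 counts.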
